A study of Mus musculus with 131 samples.

Results

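The 9 genes described here encode apolipoproteins and were taken by symbol (*Apoa1*, *Apoa2*, *Apoa4*, *Apoa5*, *Apob*, *Apoc3*, *Apoe*, *Apoh* and *Apom*) from the 24397 genes of the expression table. Methylation windows and peaks were taken from the transcribed region of each gene and 5 kb on each side. The study asked how DNA methylation changes in mouse hepatocytes after birth and what the enzymes TET2 and TET3 do in it. All mice were C57Bl. Wild-type (WT) mice were sampled without injection at 1, 3 and 15 weeks. Double-knockout (DKO) mice carried floxed *Tet2* and *Tet3* and were injected at 1 day or 3 weeks with AAV8, a liver-tropic virus that expresses Cre recombinase from the hepatocyte-specific Tbg promoter. Their controls were WT mice given the same virus at the same age, so that DKO and control mice share the virus and the Cre, and both were sampled at 15 weeks. Cells that the virus did not reach keep both genes. Other hepatocytes were of WT mice of 20 days (5hmC) and of *InsR* KO mice. In the *InsR* KO mice the insulin receptor was deleted in hepatocytes after birth with the same kind of virus, and the labels do not give their age. WT cultures were labelled in vitro with an age of 1 week. The methods describe them as unsorted newborn liver cells, and the paper as cultured for several weeks. Neutrophils of a WT mouse of 36 weeks and fat of one of 25 weeks were read as other tissues.

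Apolipoproteins are the protein part of lipoprotein particles, which carry cholesterol and triglyceride in blood. APOB is the structural protein of very-low-density and low-density particles, APOA1 and APOA2 that of high-density particles, and the smaller exchangeable apolipoproteins act on lipases and receptors. Hepatocytes are the main source of most of them, whereas APOA4 is best known from the intestine. TET enzymes oxidize 5-methylcytosine to 5-hydroxymethylcytosine (5hmC), a step toward loss of the methyl group.

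RNA was measured in 18 libraries, 1 of WT at 1 week, 2 of DKO injected at 3 weeks and 3 of each other group, called A, B and C here in table order. The deposited values are FPKM (fragments per kilobase of transcript, scaled to library size), which allow comparison between genes, and the read depth is unknown. Changes were tested with limma on log2(FPKM + 1) over 11133 genes and adjusted by the Benjamini-Hochberg procedure. All 9 members passed the filter on low values (a mean of 1 FPKM or more in a group) and none was listed at 0. Libraries differed in their balance of long (at least 5000 bases, 289 genes) and short (at most 1500 bases, 717 genes) transcripts, by −0.70 to 0.52 on the log2 scale. Lowest were DKO injected at 3 weeks B (−0.70), control injected at 1 day C (−0.42) and, within its group, DKO injected at 1 day B (−0.19). *Xist* was at 48.0 to 77.1 FPKM in the 3 WT libraries of 3 weeks. In those of 15 weeks it was at 0.0272 or less, and in the 1 week library at 0.0609. Age and sex therefore cannot be told apart between 3 weeks and either other age. Of the controls injected at 3 weeks, library C had 88.1 FPKM of *Xist* and the others 0.0384 or less. FPKM of whole genes did not show the deletion of *Tet2*, which was at 2.82 to 4.08 in DKO injected at 1 day and at 0.89 to 2.13 in their controls. Per the methods, hepatocytes of the mice were isolated on a Percoll gradient and sorted by size and for absence of CD45, a gate that would remove leukocytes, Kupffer cells among them. Summed FPKM of 10 hepatocyte markers ranged from 9237 to 14618, with *Alb* (albumin) listed at 0 in all 18 libraries and *Serpina1a* in 14, which can be a failed estimate of very abundant genes.

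In mm9 the cluster of *Apoa1* (chr9:46036713-46038552, plus strand), *Apoc3* (chr9:46041134-46043380, minus), *Apoa4* (chr9:46048927-46051541, plus) and *Apoa5* (chr9:46076691-46080002, plus) stands on chromosome 9. *Apoa2* is at chr1:173155185-173156510 (plus), *Apoe* at chr7:20281593-20284515 (minus), *Apob* at chr12:7984483-8023645 (plus), *Apoh* at chr11:108256611-108275710 (plus) and *Apom* at chr17:35265942-35268697 (minus).

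The members spanned a wide range of levels in adult hepatocytes. In 15 week WT libraries *Apoe*, a ligand of lipoprotein receptors, had the highest listed level of all 11133 genes tested, *Alb* not among them, at 10843 ± 824 FPKM (SD, n = 3). *Apoa2* (6217 ± 151) and *Apoa1* (4768 ± 576) followed. *Apoh*, a phospholipid-binding plasma protein, was at 1196 ± 57.6 and *Apoc3*, an inhibitor of triglyceride clearance, at 1129 ± 150, and these neighbours overlapped. *Apob* (719 ± 2.43), *Apoa5* (381 ± 127), *Apom* (148 ± 2.01) and *Apoa4* (83.6 ± 7.22) followed without overlap between neighbours.

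**Figure D1:**
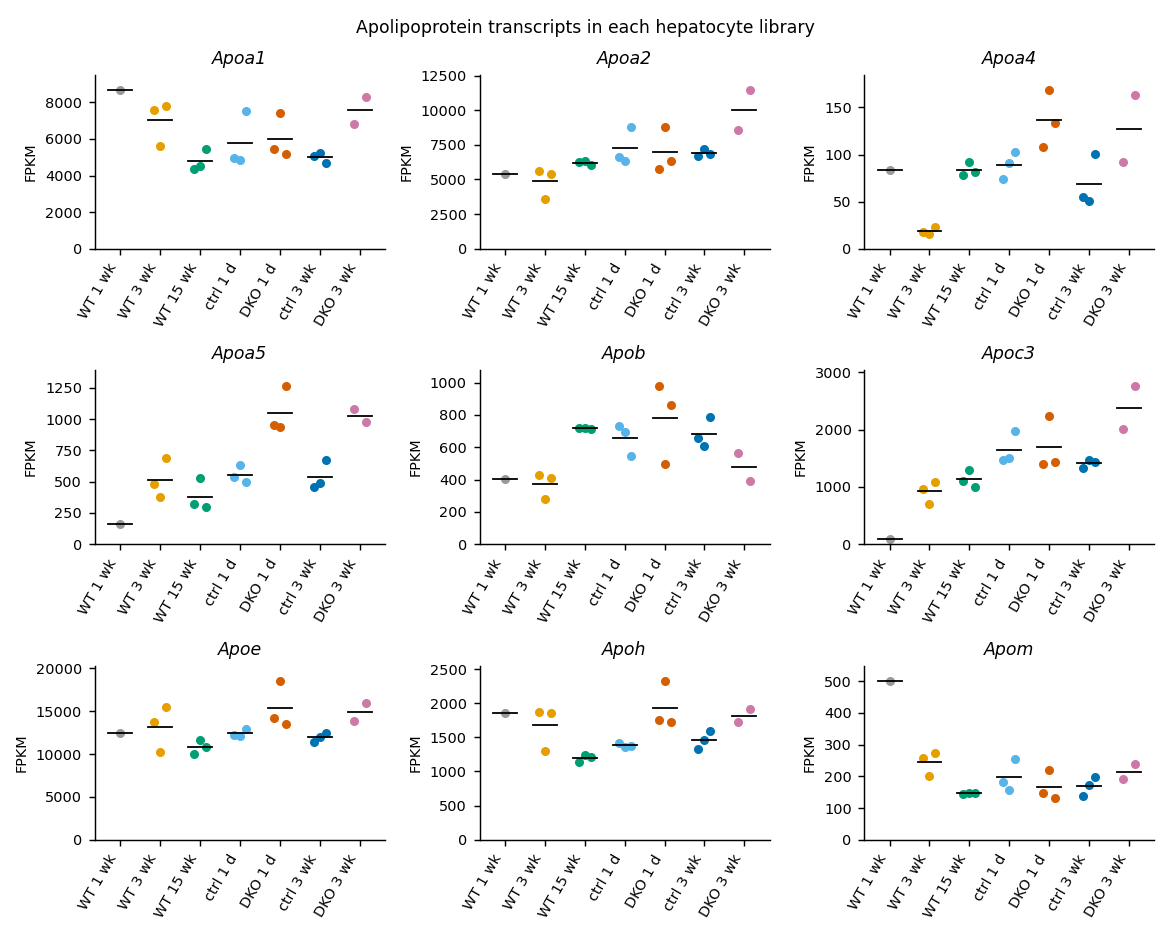
Level of each member in FPKM (linear axes from 0) in each of the 18 RNA libraries, by group; points are libraries and lines are group means. ctrl, injected control; d, day; wk, weeks. *Apoa5* in DKO injected at 1 day lies between 939.7 and 1266 and in their controls between 498 and 632.

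Within the first weeks *Apoc3* showed the greatest difference. The single 1 week library held 90.9 FPKM of it, the 3 week libraries 972, 708 and 1088, and the 15 week libraries 1101, 1292 and 995. It was 12.4-fold higher in the mean at 15 weeks than at 1 week, and no later library came near the 1 week value. By a rule of 1 log2 unit in each 15 week library, *Apoc3* was the only member that was higher (5.71% of all genes) and *Apom* the only one that was lower (8.56% of all genes). *Apom*, the carrier of sphingosine-1-phosphate, had 499 FPKM at 1 week against a mean of 148 at 15 weeks, 3.38-fold lower. *Apoa5*, which favours triglyceride clearance, was at 163 FPKM at 1 week and averaged 517 at 3 weeks. There was 1 library at 1 week, so none of these differences was tested. Its *Xist* was at 0.0609 FPKM, so age and sex cannot be told apart between 1 and 3 weeks. The 1 week library also stood apart in markers of blood, fetal hepatocytes and cholangiocytes. Its summed FPKM was 1715 for blood, 13267 for fetal hepatocyte and 7.25 for cholangiocyte genes. At 15 weeks these were 40.2 to 45.9, at most 1.32 and 0.564 to 0.945. The blood sum at 15 weeks was mostly *Alas2* (mean 42.0), with *Hba-a1* at 0.0711 and *Hbb-b1* at 0.0270. In the 1 week library Kupffer cell and macrophage genes summed to 6.90 and endothelial genes to 6.15. The 15 week WT libraries were lower, at 1.84 to 3.67 and 2.44 to 5.03. The 3 week ones were higher, at 9.63 to 24.5 and 12.4 to 21.4. Stellate cell and fibroblast genes summed to 21.1 at 1 week, within the 12.4 to 26.1 of 15 weeks. The part of these cells and stages in the differences was not tested.

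Between 3 and 15 weeks 2 members rose (*Apoa4*, *Apob*; 24.1% of all genes rose) and 2 fell (*Apoh*, *Apom*; 9.3% of all genes fell). *Apoa4* was at 18.0, 15.6 and 22.7 FPKM at 3 weeks and at 77.8, 91.7 and 81.3 at 15 weeks. The groups were far apart, and it rose by 2.11 on the log2 scale (SE 0.27, limma adjusted p = 5.28e-05), with a ratio of mean FPKM of 4.46. The 1 week library had 83.5 FPKM, as high as the adult ones, and like them was low in *Xist*, unlike the 3 week libraries. The part of sex was not tested.

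*Apob* was at 430, 278 and 412 FPKM at 3 weeks and at 719.7, 720.1 and 716 at 15 weeks. The adult libraries were all above the younger ones, and *Apob* rose by 0.97 (SE 0.25, limma adjusted p = 0.00821). Its 13934 base transcript is by far the longest of the 9, and the 3 week libraries were lower in long transcripts (−0.13, −0.29 and −0.15) than the 15 week libraries (0.03, 0.06 and 0.22). With the length trend of each library removed, the rise was 0.61 (limma adjusted p = 0.00217).

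*Apom* had 259, 201 and 273 FPKM at 3 weeks and 145, 149 and 148 at 15 weeks. It fell by 0.71 (SE 0.21, limma adjusted p = 0.0204). *Apoh* had 1866, 1304 and 1856 FPKM at 3 weeks and 1133, 1246 and 1209 at 15 weeks, and it fell by 0.47 (SE 0.16, limma adjusted p = 0.0380). In both genes all adult libraries lay below all younger ones, and the share of all genes that did so was not counted. Without any 1 of the 6, *Apoh* had an adjusted p above 0.05 (0.0725 to 0.119) except without 3 week B, and *Apom* had 0.0540 to 0.0655 without 15 week A or B or 3 week A or C. *Apoa1* was lower at 15 weeks without overlap (−0.55, limma adjusted p = 0.0619) and did not pass.

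The median change of the 9 members was −0.26, beside 0.16 for all genes tested. Scaling the libraries by their upper quartile or by median ratios moved the median of all genes (to −0.05 with the upper quartile) and brought the members called to 7 in both. *Apoa1*, *Apoa5* and *Apoe* were then called lower at 15 weeks (*Apoa1* by −0.83 and −0.76), and *Apoa4* and *Apob* remained higher. All genes called numbered 3715 as deposited, 3999 with the upper quartile and 3920 with median ratios. Their split went from 72.1% higher to 40.0% and 49.3% higher. Of the markers of other cells, 8 of 8 tested Kupffer cell and macrophage genes and 6 of 6 endothelial genes fell from 3 to 15 weeks. Their sums were 9.63 to 24.5 and 12.4 to 21.4 FPKM at 3 weeks and 1.84 to 3.67 and 2.44 to 5.03 at 15 weeks. Their part in the changes was not tested. In bulk RNA, fewer cells of a type and less RNA per cell cannot be told apart.

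Deletion of *Tet2* and *Tet3* at 1 day changed 1 of the 9 members. *Apoa5* was at 949.9, 939.7 and 1266 FPKM in DKO mice and at 539, 632 and 498 in injected controls. Every DKO library was above every control, and *Apoa5* rose by 0.91 on the log2 scale (SE 0.25, limma adjusted p = 0.0232), with a ratio of mean FPKM of 1.89. Of all genes 4.19% rose and 15.6% fell. The call was lost without DKO A (adjusted p = 0.0545), DKO C (0.0880), control A (0.0604) or control C (0.09999), and without the 3 libraries lowest in long transcripts (0.126), with log2 changes of 0.77 to 0.98.

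*Apoh*, *Apoa4* and *Apoe* were also higher in every DKO than in every control library injected at 1 day, and did not pass. The share of all genes separated in this way was not counted. *Apoh* was at 1749, 2319 and 1728 FPKM against 1420, 1365 and 1378 (0.46, limma adjusted p = 0.0566). *Apoa4* was at 108, 168 and 134 FPKM against 73.8, 91.2 and 102.5 (0.60, limma adjusted p = 0.130). After scaling by the upper quartile, or by median ratios, *Apoa4*, *Apoe* and *Apoh* passed as well. The split of all genes called at 1 day was 21.2% higher as deposited, 55.6% with the upper quartile and 49.8% with median ratios. The genes called numbered 2204, 2816 and 2813. The other 5 members differed by −0.26 to 0.20 on the log2 scale, and their groups overlapped. The median of the 9 was 0.20, beside −0.11 for all genes. The balance of long against short transcripts was 0.52, −0.19 and 0.48 in the DKO and 0.11, 0.18 and −0.42 in the control libraries, and its part was not tested.

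After deletion at 3 weeks 0 of the 9 members passed (limma; 5.2% of all genes passed), and 4 had an unadjusted p under 0.05 (*Apoa1*, *Apoa4*, *Apoa5* and *Apoc3*). *Apoa5* was at 1079 and 979 FPKM in the DKO libraries and at 453.9, 489 and 672 in controls, a ratio of means of 1.91 (0.95 on the log2 scale, SE 0.28, limma adjusted p = 0.0630). *Apoc3* was at 2006 and 2762 FPKM against 1335, 1476 and 1442 (0.73, adjusted p = 0.0875 by limma). *Apoa1* was at 6843 and 8311 FPKM against 5073, 5236 and 4662 (0.60, adjusted p = 0.140 by limma). In all 3 genes, and in *Apoa2*, *Apoe* and *Apoh*, both DKO libraries lay above all controls. The share of all genes that did so was not counted. *Apob* went the other way, at 561 and 392 FPKM against 655, 607 and 787 (−0.53, limma adjusted p = 0.239). With the length trend removed its difference was 0.0070. The median of the 9 was 0.52, beside −0.07 for all genes. The balance of long transcripts was −0.17 and −0.70 in the DKO libraries and 0.22, 0.10 and 0.34 in the controls. With the length trend removed *Apoa5* passed (0.99, limma adjusted p = 0.0381), and 5 members passed with upper quartile and 4 with median ratio scaling, where the split of all genes called went from 16.8% higher to 48.2% and 50.9%. All genes called numbered 579 as deposited, 647 without the length trend, 1329 with the upper quartile and 1372 with median ratios. Control C, the library with *Xist*, is in the reference group of this comparison. Without it *Apoa4* passed (1.20, limma adjusted p = 0.0269).

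The effect of deletion did not differ detectably between the injection times for any member (0 of 9 past the threshold by limma, 1 with an unadjusted p under 0.05; 5.6% of all genes passed). *Apoa5* had a difference of −0.04 (95% confidence interval −0.85 to 0.77). The widest were *Apob* (0.73) and *Apoc3* (−0.72).

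**Figure D2:**
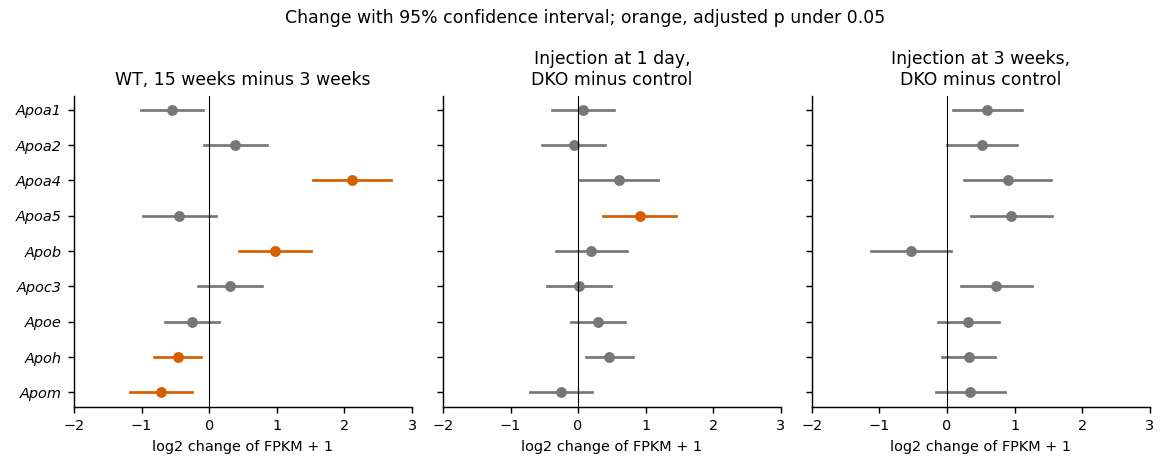
Change of each member in log2(FPKM + 1) with its 95% confidence interval, in the 3 comparisons tested within limma; orange marks an adjusted p under 0.05. *Apoa4* is farthest to the right from 3 to 15 weeks, at 2.11, and *Apoa5* after injection at 1 day, at 0.91.

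Other genes of lipoprotein metabolism were read from lists. A list of other apolipoprotein genes also held *Apobec1*, whose product edits *Apob* mRNA. Of its 7 genes tested, 1 rose and 2 fell after deletion at 1 day, and the median of −0.40, beside −0.11 for all genes, was the value of *Apobec1*, which did not pass. *Apof*, an inhibitor of cholesteryl ester transfer, rose from 274 to 617 FPKM (1.16, limma adjusted p = 0.000138) and again after deletion at 3 weeks (0.90, limma adjusted p = 0.00851). *Apon* (−0.71) and *Clu* (−0.75), the gene of apolipoprotein J, fell at 1 day, and *Apoc2*, the activator of lipoprotein lipase, rose at 3 weeks (1.02). Of 17 genes of assembly and remodelling, *Lpl*, lipoprotein lipase itself, rose from 2.54 to 22.0 FPKM at 1 day (2.738, limma adjusted p = 5.80e-05) and *Saa4*, of the serum amyloid A family, fell (−1.12). From 3 to 15 weeks *Lpl* fell by 5.20, *Pltp*, which transfers phospholipid, rose by 2.85, *Lipg*, endothelial lipase, rose by 2.65 and *Gpihbp1*, the anchor of lipoprotein lipase, fell by 1.64, and 5 of the 17 rose and 3 fell, with a median of 0.28 beside 0.16 for all genes.

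Of 13 receptor and transporter genes tested, 3 rose and 4 fell from 3 to 15 weeks, among them *Sort1* (0.65), a sorting receptor, which rose, and *Abcg5* (−1.01), a sterol transporter, and *Stab1* (−1.003), which fell. Their median was −0.02. *Lrpap1* (0.46) and *Abcg5* (0.87) rose after deletion at 1 day. Of 21 transcription factor genes known to act on apolipoprotein genes, 0 rose and 5 fell at 1 day, among them *Cebpb* (−0.89), *Nr2f2* (−0.74), *Hnf4a* (−0.64) and *Nr1h3* (−0.44). Their median was −0.17, beside −0.11 for all genes, of which 4.19% rose and 15.6% fell. Between 3 and 15 weeks 7 of the 21 rose and 1 fell, with a median of 0.49 beside 0.16 for all genes, of which 24.1% rose and 9.3% fell.

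Among 3339 genes averaging 10 FPKM or more, those whose levels followed a called member most closely over the 18 libraries were named, which share depth and length balance. For *Apoa5* they were *Btd* (Pearson r = 0.91), *Hamp2* (0.89) and *Cyp3a25* (0.88), and for *Apoa4* *Tmed4*, *Tm7sf2* and *Dpp7* (0.92 to 0.90). For *Apob* they were *Plxnb2*, *Dync1h1* and *Atrn* (0.95 to 0.93), for *Apoh* *Apoe*, *Cpq* and *Lipc* (0.91 to 0.89), and for *Apom* *Bsg*, *Spryd4* and *Stub1* (0.89 to 0.88).

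DNA methylation came from whole-genome bisulfite sequencing (WGBS), with 1 library for the newborn WT, 1 for the adult WT and 1 for DKO mice injected on day 1 and grown to adulthood, as the percent of methylated CpG readings in 200 bp windows (mm9). The newborn sample is labelled with an age of 1 week. With 1 library per group nothing was tested, and neither coverage nor an interval can be given. Of 629 windows in the 9 regions, 108 were at least 35 points lower in adult than in newborn WT (1.63% of all windows), and 3 were at least 35 points higher (0.262% of all windows), all of them in *Apom*. The DKO library was at least 35 points above adult WT in 118 windows (1.98% of all windows). Of the 108 windows that lost methylation, 96 were so in the DKO (70.6% of all such windows). Mean methylation over the regions was 59.995% in newborn, 45.3% in adult WT and 61.1% in DKO.

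The window with the largest fall is shown for 4 members, to give its sequence and CpG content, written along the gene with the CpG sites in capitals. In *Apoc3* this was a window of the first part of the gene, in an intron 280 bases after the start site (chr9:46043001-46043200, minus strand). It held 1 CpG and read 90.9% in newborn, 0.0% in adult WT and 83.3% in DKO. In *Apoa5* it lay just past the gene (chr9:46080201-46080400, plus strand), with 3 CpG sites and 87.2%, 4.17% and 77.6%. In *Apoa2* it lay past the gene (chr1:173157601-173157800, plus strand; 86.7%, 2.56% and 78.8%). In *Apoe* it was in a coding exon with 12 CpG sites (chr7:20281801-20282000, minus strand; 60.8%, 2.58% and 57.5%).
Apoc3: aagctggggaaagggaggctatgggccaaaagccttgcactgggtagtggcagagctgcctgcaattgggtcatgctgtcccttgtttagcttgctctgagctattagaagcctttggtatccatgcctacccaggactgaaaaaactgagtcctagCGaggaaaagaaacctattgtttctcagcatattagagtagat
Apoa5: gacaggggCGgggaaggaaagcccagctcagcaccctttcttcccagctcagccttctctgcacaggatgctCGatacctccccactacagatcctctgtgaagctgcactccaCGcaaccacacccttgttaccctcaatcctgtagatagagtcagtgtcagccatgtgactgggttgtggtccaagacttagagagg
Apoa2: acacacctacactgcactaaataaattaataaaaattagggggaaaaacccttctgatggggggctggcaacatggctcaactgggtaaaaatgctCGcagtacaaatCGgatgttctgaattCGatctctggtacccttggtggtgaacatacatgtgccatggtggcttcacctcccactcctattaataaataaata
Apoe: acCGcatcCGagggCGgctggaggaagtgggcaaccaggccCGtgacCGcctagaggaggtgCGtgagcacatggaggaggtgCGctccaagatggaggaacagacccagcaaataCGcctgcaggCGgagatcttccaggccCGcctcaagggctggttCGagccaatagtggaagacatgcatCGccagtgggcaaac

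In the chromosome 9 cluster 40 of 169 windows were lost, meaning at least 35 points lower in adult WT. *Apoa1* (16 of 52 windows) and *Apoc3* (10 of 52) share 10 of them, because *Apoc3* lies within 5 kb of *Apoa1* on the other strand. Within *Apoc3*, all windows from 280 to 1080 bases after the start that were lost had 80.5% to 95.2% in newborn and 0.0% to 18.0% in adult WT, and 50.7% to 83.5% in DKO. *Apoa5* lost 18 of 64 windows, 8 of them over coding exons, *Apob* 43 of 178, *Apoa2* 8 of 50 and *Apoa4* 6 of 50. *Apoe* lost 9 of 59 and *Apoh* 8 of 115, while *Apom* lost 0 of 58, and its largest fall was 31.6 points. In the 3 *Apom* windows that gained, methylation went from 29.7%, 22.0% and 43.8% to 92.3%, 80.6% and 81.0%, and the DKO had 84.6%, 74.6% and 70.7%. Windows over the start sites were at 10.0% or less in every member and library. Lost windows had a median of 2 CpG sites and the other windows 3.

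**Figure D3:**
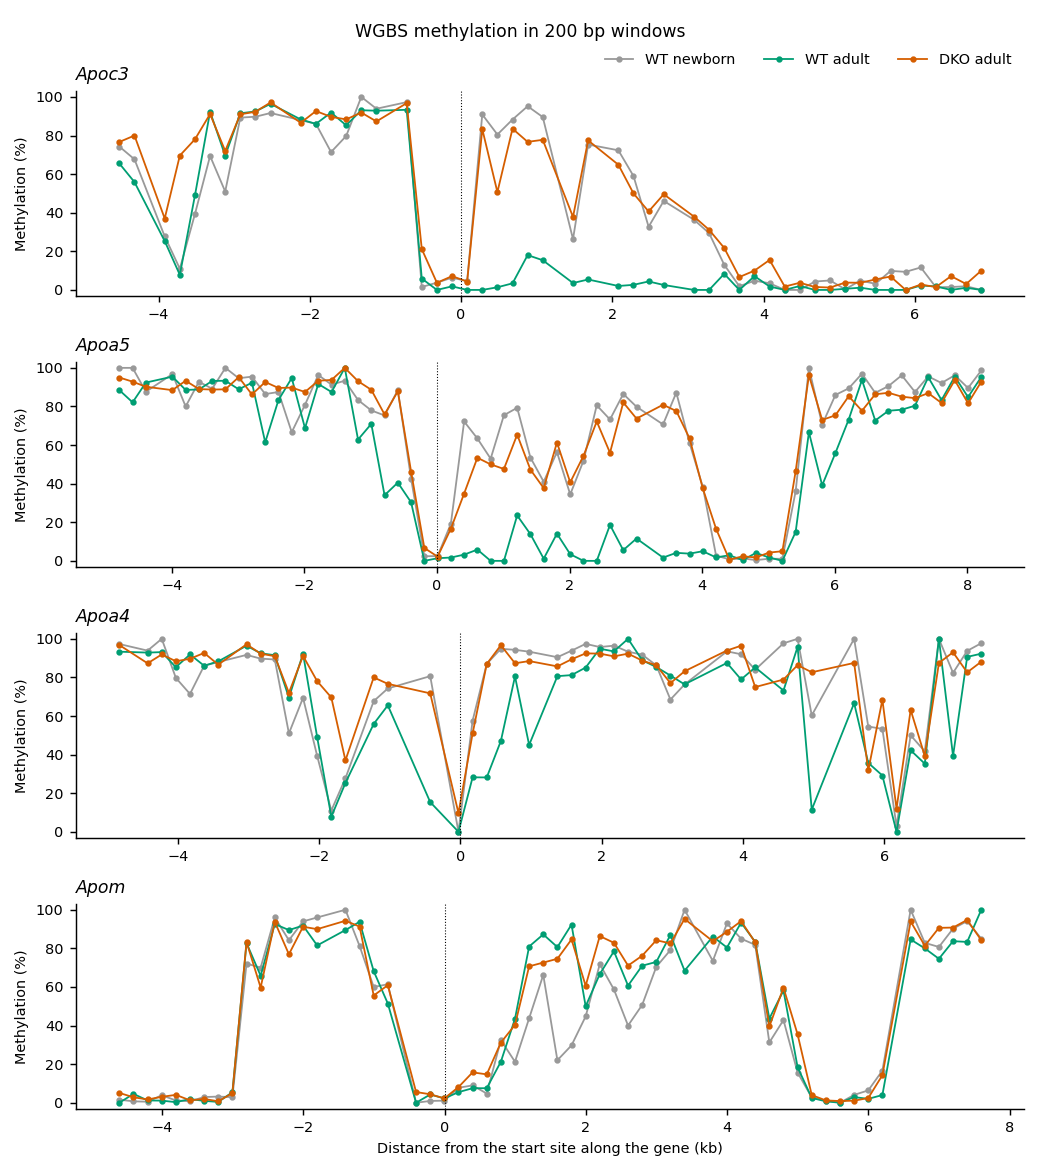
Methylation in percent (0 to 100) of 200 bp WGBS windows along 4 members, by distance from the start site in kb (dotted line at 0); grey is newborn WT, green adult WT and orange adult DKO, 1 library each. In *Apoc3* and *Apoa5* the adult WT line is low after the start while the other lines are high. In *Apom* the newborn line is the low one in the 3 windows that gained methylation.

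**Figure D4:**
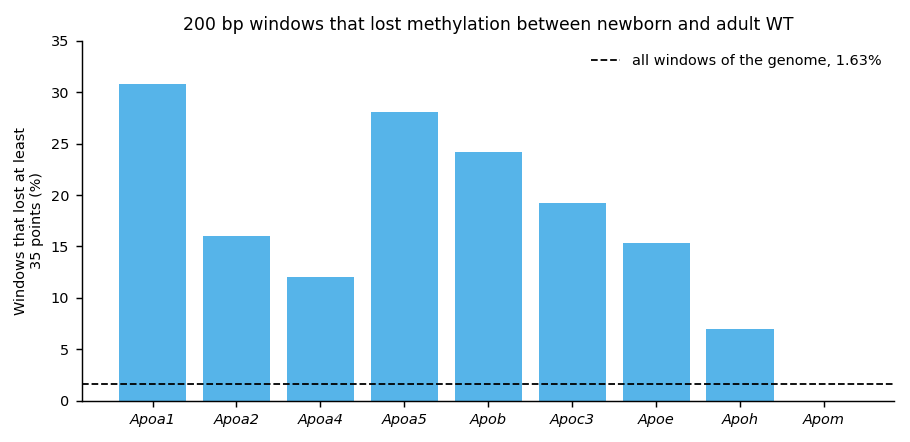
Share of the 200 bp windows of each member (gene and 5 kb on each side) that were at least 35 points lower in adult than in newborn WT; the dashed line is the share among all windows, 1.63%. Bars start at 0, and *Apom* has none.

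Peaks of other marks were set against the lost windows, as a description. Of the 108, 35 (32.4%) lay in a 5hmC peak of WT hepatocytes of 20 days, against 20.9% of the other windows of the regions and 19.8% of all lost windows of the genome. For H3K27ac, a mark of active promoters and enhancers, 73 (67.6%) lay in a peak of WT, against 47.8% of the other windows and 34.1% of all lost windows, and 78 (72.2%) in one of DKO, against 54.3% and 31.6%. For H3K4me1, found at enhancers, 64 (59.3%) lay in a peak of WT, fewer by share than the other windows of the regions (64.5%) and more than all lost windows (54.6%). In DKO these were 87 (80.6%), against 67.2% and 50.8%. Few lay in open chromatin read by ATAC-Seq, 3 (2.78%) in a WT peak, against 5.18% of the other windows and 8.74% of all lost windows, and 1 (0.926%) in a DKO peak, against 5.57% and 5.98%. The histone marks had 1 library per genotype, of 15 weeks, with the DKO injected at 1 day.

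In ATAC-Seq, which reads open chromatin, the regions held 23 joined peaks over 2 WT and 2 DKO libraries. Of them 11 were in all 4 libraries (35.5% of all joined peaks), 1 was in both WT and no DKO library (2.96% of all) and 1 in both DKO and no WT library (5.04% of all). The first lay 40611 bases after the start of *Apob* (4.46 and 3.51 normalized tags in WT), and the second at −1098 bases from that of *Apoa2* (10.3 and 15.5 in DKO). All these samples were labelled Liver, though the protocol names hepatocytes. Their labels give no age or injection time, and the paper names adult hepatocytes with deletion at 1 day.

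HNF6, a liver transcription factor, had a peak in the first intron of *Apoa1*, 160 to 190 bases after the start, in all 4 libraries. Their labels give no age or injection time either. The peak had normalized tags of 9.92 and 18.4 in WT and 20.2 and 63.3 in DKO. The libraries differed in the number of peaks called, with 4387 and 9355 peaks in WT and 9305 and 34665 in DKO, so these levels were not compared. In *Apob* a peak about 30.8 kb after the start, inside the gene, was called in both WT libraries and in DKO 1 (5.44, 6.73 and 13.8), and in DKO 2 a peak was called 30471 bases after the start. The intronic part of the *Apoa1* peak and the *Apob* peak of the first WT library are shown (chr9:46036820-46036981 and chr12:8015165-8015349, plus strand), with the letters ATTGAT or their reverse complement ATCAAT, the core of the HNF6 site, in capitals. On either strand these letters were in 71.6% of 1365 HNF6 peaks and in 8.06% of stretches of the same length 1000 bases before them.
Apoa1: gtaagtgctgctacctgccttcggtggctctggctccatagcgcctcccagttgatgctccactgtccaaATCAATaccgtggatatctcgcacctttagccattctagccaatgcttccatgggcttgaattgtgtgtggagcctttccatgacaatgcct
Apob: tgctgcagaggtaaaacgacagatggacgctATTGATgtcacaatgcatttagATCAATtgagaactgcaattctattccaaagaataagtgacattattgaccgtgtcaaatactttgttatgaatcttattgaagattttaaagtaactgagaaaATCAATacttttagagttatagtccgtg

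Reduced representation bisulfite sequencing (RRBS) gave 100 bp windows in several mice. By animal number the WT mice of 3 weeks are those of RNA libraries A and B, with *Xist* at 77.1 and 48.0 FPKM. The controls injected at 1 day were low in *Xist*, so age and sex cannot be told apart here either. Control C injected at 3 weeks, given last of its group below, is by number the mouse with 88.1 FPKM of *Xist*. Of 81 windows of the members tested, 3 were called higher in DKO mice injected at 1 day (limma adjusted p under 0.05 and at least 35 points; 1.13% of all windows) and 1 after injection at 3 weeks (0.297% of all windows). Their sequences, where they lie outside the untranslated exon parts, are shown along the gene with the CpG sites in capitals.
Apoc3: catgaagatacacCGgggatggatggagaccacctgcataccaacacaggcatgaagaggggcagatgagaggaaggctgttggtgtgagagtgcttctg
Apoa2: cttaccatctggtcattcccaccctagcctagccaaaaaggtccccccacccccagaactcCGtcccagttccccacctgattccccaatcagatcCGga
Apoa4: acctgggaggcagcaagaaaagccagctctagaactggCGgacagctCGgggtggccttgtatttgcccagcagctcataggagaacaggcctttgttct

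The first (chr9:46040001-46040100) lies 3330 bases after the start of *Apoc3*. It read 56.2% and 59.5% in DKO injected at 1 day and 0% in all 3 controls, a difference of 57.8 points (SE 7.86, limma adjusted p = 0.00421). After injection at 3 weeks it read 17.8% and 17.3% against 12.7%, 0% and 4%, and WT at 3 weeks had 20.9% and 0%. The effect at 1 day minus that at 3 weeks was 45.9 points and did not pass (limma adjusted p = 0.274). Of 78 member windows 0 passed (0.132% of all windows passed). An unadjusted limma p under 0.05 was found in 8 of the 78, and its share over all windows was not counted. Averaged over the 3 RRBS windows of *Apoa1* and *Apoc3*, DKO mice injected at 1 day had 43.1% ± 5.31 (SD, n = 2) and controls 0.188% ± 0.326 (n = 3). The two-sided exact permutation p was 0.1, the smallest that 2 against 3 mice allow. Every other member except *Apoh* had the same p, *Apob* with a difference of only 2.52 points. Over all RRBS windows these DKO libraries averaged 65.6% and 65.0%, and the controls 63.0%, 62.0% and 62.2%.

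In *Apoa2* the window at −4535 bases from the start (chr1:173150601-173150700) read 59.7% and 71.4% in DKO injected at 1 day and 11.9%, 4.17% and 0% in controls (60.2 points, limma adjusted p = 0.0189). After injection at 3 weeks it read 42.9% and 64% against 0%, 7.69% and 28% (41.5 points, limma adjusted p = 0.191). WT at 3 weeks had 66.7% and 88.9%. In *Apoa4* a window 323 bases after the start read 91.1% and 91.5% against 48.3%, 62.1% and 37.6% (42.0 points, limma adjusted p = 0.0125), and WT at 3 weeks had 86.7% and 85.0%. After injection at 3 weeks this window read 78.2% and 85.0% against 62.1%, 54.65% and 56.2% (23.9 points, limma adjusted p = 0.297). The next window of *Apoa4* (chr9:46049301-46049400) read 66.7% in both DKO mice injected at 3 weeks and 0% in all controls (66.7 points, limma adjusted p = 0.000855). These mice showed no spread within either group, so the error comes from the other windows and groups of the fit. Its 1 measured value in DKO injected at 1 day was 64.7% against 0% in all 3 controls, too few to test. In all of these windows no DKO value overlapped the controls, and the share of all windows without overlap was not counted. A window before *Apoe* rose by 29.9 points at 1 day (limma adjusted p = 0.00860), under the limit of 35. Without DKO mouse B injected at 1 day, 1 of the 3 windows was called.

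**Figure D5:**
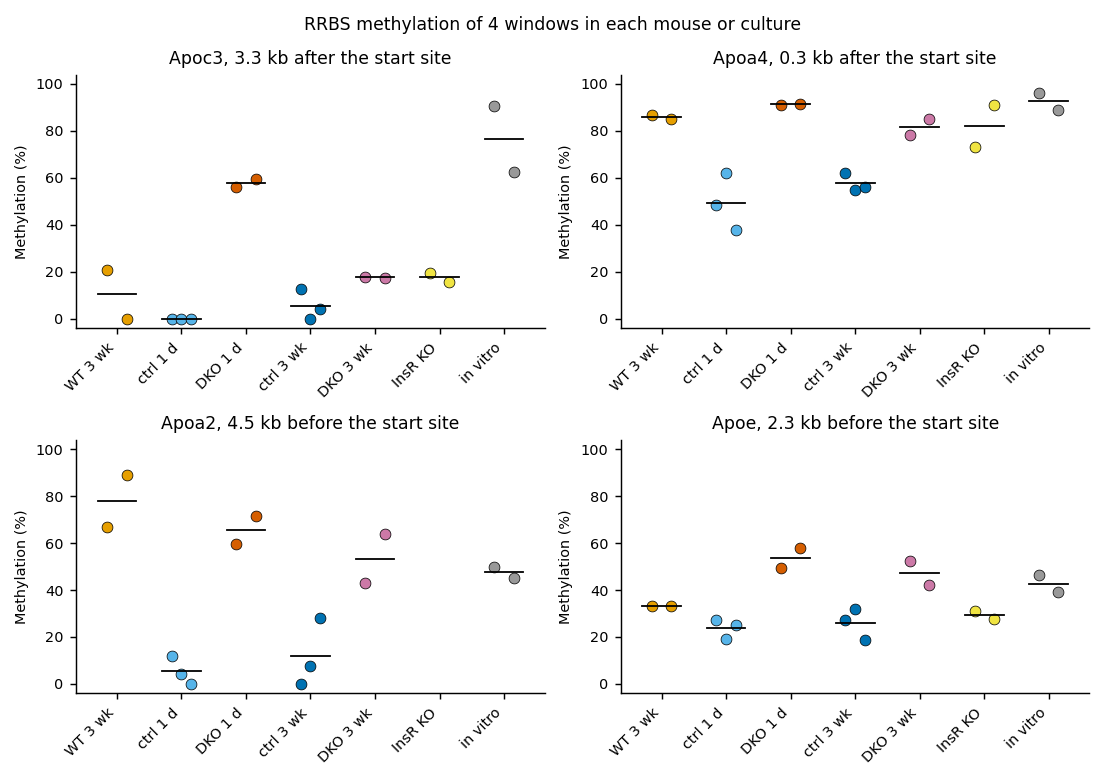
Methylation in percent (0 to 100) of 4 RRBS windows in each mouse or culture; points are samples and lines group means. Here ctrl is injected control, InsR KO is insulin receptor knockout and in vitro is cultured unsorted newborn liver cells. In the *Apoc3* window the 2 DKO mice injected at 1 day (56.2% and 59.5%) stand above all controls (0%).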

How the data were processed

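The members and all gene lists were chosen with earlier results of these data known. The authors made the FPKM values from 50 bp single-end RNA-Seq reads with TopHat2 and Cufflinks, and deposited 1 column per library. They deposited WGBS and RRBS methylation as the fraction of methylated CpG readings per window after alignment to mm9 with BSMAP 2.74, and the values were multiplied to percent. Peaks were called by them with HOMER for every library; the deposited peaks have a score and a normalized tag signal, scaled to a common library size. Coverage is not in the tables, so depth is unknown. Of all table columns, 49 were not used because their names match no condition of the labels (6 of expression, 43 of 61 of RRBS). RRBS columns with an animal number only were assigned through the same number in the expression table, so the link rests on those numbers.

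Genes averaging 1 FPKM or more in some condition entered limma 3.58.1 (R 4.3.3, eBayes with trend) on log2(FPKM + 1), with all 18 libraries in 1 fit and Benjamini-Hochberg adjustment; log2 changes are on that scale, which understates those of low genes, folds are ratios of group mean FPKM, and 295 values listed at 0 beside 100 FPKM or more elsewhere were taken as missing. RRBS windows measured in 2 or more mice per group were fitted in percent. ATAC-Seq peaks that overlap by at least 1 bp were joined. Scripts were tested on simulated data. Nothing in the labels says which samples share a litter or day, so p-values measure the spread between these samples. Named were the 9 members, up to 4 genes per list and comparison past the threshold by size of change, and 3 genes per called member by correlation; a few genes of the lists are not reported here. Python 3.11.15 with pandas 2.3.3 was used.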

Additional observations from a re-analysis of the deposited data

Results flagged for a closer look

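The cultures labelled in vitro, of unsorted newborn liver cells, entered no comparison, whereas the mice gave sorted hepatocytes. In 1 of 53 RRBS windows with a value, both cultures stood at least 35 points above the highest of the WT and injected control mice. Smaller differences were not counted. Nor was the share of all RRBS windows that meet this rule, for the cultures or for the *InsR* KO mice. The window lay 3330 bases after the start of *Apoc3* (3337 bases after that of *Apoa1*). It read 90.5% in culture A and 62.3% in culture B, above the highest of those mice at 20.9%. The *InsR* KO mice were at 19.2% and 15.8% in that window and stood at least 35 points above those mice in 0 of 53 windows. Neutrophils (97.4%) and fat (91.5%) were high as well. The cultures differed from each other in nearby windows of *Apoc3*. At 3230 bases after the start A read 28.6% and B 0%, and at 3030 bases 81.25% and 11.1%.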

How the results depend on the processing

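Of 465 values of single genes under an alternative, 395 kept their direction and side of the threshold, 16 lost the call, 38 gained it and 16 changed sign. Called members numbered 1 after deletion at 1 day, 0 after deletion at 3 weeks, 4 from 3 to 15 weeks and 0 for the difference between injection times. They were 2 at 1 day with a pseudocount of 10, with a minimum of 10 FPKM or against uninjected WT; 4, 5 and 7 in the first 3 comparisons with upper quartile scaling; 4, 4 and 7 with median ratios; and 4, 1, 7 and, for the difference, 1 (*Apoh*) with the length trend removed, an alternative chosen after seeing the data, as was leaving out the 3 libraries lowest in long transcripts, which left 0 at 1 day. In the same order, all genes called were 2204, 579, 3715 and 624 as deposited. With the length trend removed they were 3215, 647, 4216 and 1360. At 1 day they were 2129 with a pseudocount of 10, 1379 with a minimum of 10 FPKM and 2473 against uninjected WT. Leaving out 1 library gave 0 to 1, 0 to 1, 2 to 5 and 0 to 2 members called. Without DKO 1 day B the last 2 were *Apob* and *Apoc3*. From 1 to 15 weeks 6 members passed at 0.5 log2 units, and the share of all genes at that limit was not counted.

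Sign changes were all small and none was called. At 1 day *Apoa2* was 0.15 with upper quartile scaling, 0.11 with median ratios, 0.14 against uninjected WT and 0.21 without the length trend, *Apom* 0.14 against uninjected WT and 0.015 without the length trend, and *Apoc3* −0.068 without the 3 libraries. *Apob* after deletion at 3 weeks was 0.0070 without the length trend. Leaving out 1 library at 1 day gave −0.094 to 0.27 for *Apoa1*, −0.25 to 0.080 for *Apoa2* and −0.21 to 0.15 for *Apoc3*. The cause was not tested.

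Of WGBS windows, 49 were lost at 50 points and 175 within 20 kb. ATAC-Seq peaks in WT only were 0 in the upper part of scores and 0 within 1 kb. RRBS windows called at 1 day were 1 within 1 kb, and 1 to 3 without 1 mouse. All genes called after deletion at 3 weeks were 579, and 1372 with median ratios, 174 with a minimum of 10 FPKM, 52 with only the groups compared and 48 without DKO B. No paired analysis was possible between groups because the column names carry animal numbers and not the replicate numbers of the labels. RNA and RRBS values were not compared mouse by mouse, though shared animal numbers would allow it.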
